A study of Mus musculus with 4 samples.

Results

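This account covers 9 genes whose products are secreted by the male accessory glands: the seminal vesicle secretory proteins Svs2, Svs3a, Svs3b, Svs4, Svs5 and Svs6, and the prostate products Pbsn, Tgm4 and Msmb. They were taken by name, through Ensembl identifiers matched to GENCODE symbols, and all 9 are among the 22073 genes of the deposited table. The libraries are poly(A) RNA from right testes of KM strain mice taken at maturity. In the 2 hemicastrated mice the left testis had been removed before puberty, while the 2 control mice underwent sham surgery in parallel. No transgene, allele or drug is named in the labels, and no age is given. The design text gives each group 2 mice while the protocols give each 3 mice. Each of the 4 libraries is taken as a separate mouse, and p-values then measure only the spread between these libraries.

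The seminal vesicle and the prostate are androgen-dependent glands that empty into the urethra and lie away from the testis and epididymis. Rodent Svs proteins are the main proteins of the seminal vesicle fluid. After ejaculation the transglutaminase Tgm4, made by the anterior prostate (coagulating gland), crosslinks them, above all Svs2 and the Svs3 proteins, into the copulatory plug. Pbsn encodes probasin, a lipocalin whose promoter is widely used to direct transgenes to the prostate epithelium, and Msmb encodes beta-microseminoprotein, another prostatic secretion. Abundant RNA of these genes in a testis sample would mark tissue of those glands.

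Of the 9 genes, 8 were at or near 0 in all 4 testes, in both groups. Pbsn and Msmb were listed at 0 in every library. Another 6 stayed under 1 FPKM (fragments scaled to transcript length and to all mapped fragments) in every library, so 8 of 9 were under 1 FPKM throughout, as were 45.1% of all genes in the table. Svs5 alone exceeded 1 FPKM, at 1.51 and 1.93 in control testes and 3.26 and 2.90 after hemicastration. Svs5 was the only member abundant enough for the main test (1 of 9), and it did not pass it, where 1.19% of all tested genes were called lower and 0.106% higher after hemicastration. Read depth is unknown, an exact 0 can be a failed estimate, and in bulk tissue fewer cells of a type and less RNA per cell cannot be told apart.

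Of the 9 members, 6 lie in a single block of 98.5 kb on chromosome 2 (GRCm38, 164235929 to 164334396) with no other protein-coding gene between them. The promoters of 3 of these genes are shown with that of the adjacent Wfdc15b, a gene of the same locus. Svs5 was above 1 FPKM in every library, and Wfdc15b was abundant in control testes. Svs6, next to Svs5, and Svs2 were both under 1 FPKM in every library, where levels cannot be ranked. Svs2 was at 0 or near it after hemicastration. The sequences are from RefSeq (GRCm38.p6), 250 bases before to 50 bases after the start of each gene, 5′ to 3′ on the gene's strand. Capitals mark TGTTCT on either strand, which is a half-site bound by steroid hormone receptors, and TATAAA on the gene's strand.
Svs5, chr2:164332515-164332814, plus strand: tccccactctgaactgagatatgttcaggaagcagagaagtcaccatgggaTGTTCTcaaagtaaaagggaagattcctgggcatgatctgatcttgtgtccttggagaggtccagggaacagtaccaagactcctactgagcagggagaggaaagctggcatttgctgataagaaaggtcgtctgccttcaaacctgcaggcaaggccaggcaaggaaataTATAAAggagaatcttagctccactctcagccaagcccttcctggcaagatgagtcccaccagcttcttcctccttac
Svs6, chr2:164316501-164316800, plus strand: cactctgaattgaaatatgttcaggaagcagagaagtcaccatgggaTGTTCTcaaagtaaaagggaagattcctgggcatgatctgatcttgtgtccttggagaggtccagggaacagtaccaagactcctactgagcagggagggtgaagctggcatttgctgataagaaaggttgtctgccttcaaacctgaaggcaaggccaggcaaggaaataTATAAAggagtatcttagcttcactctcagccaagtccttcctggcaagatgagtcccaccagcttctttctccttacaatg
Svs2, chr2:164238292-164238591, minus strand: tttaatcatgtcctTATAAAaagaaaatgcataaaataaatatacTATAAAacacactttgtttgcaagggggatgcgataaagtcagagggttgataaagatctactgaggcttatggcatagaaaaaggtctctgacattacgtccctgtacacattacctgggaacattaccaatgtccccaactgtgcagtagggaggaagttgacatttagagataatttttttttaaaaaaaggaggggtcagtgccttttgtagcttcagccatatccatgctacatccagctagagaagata
Wfdc15b, chr2:164221614-164221913, minus strand: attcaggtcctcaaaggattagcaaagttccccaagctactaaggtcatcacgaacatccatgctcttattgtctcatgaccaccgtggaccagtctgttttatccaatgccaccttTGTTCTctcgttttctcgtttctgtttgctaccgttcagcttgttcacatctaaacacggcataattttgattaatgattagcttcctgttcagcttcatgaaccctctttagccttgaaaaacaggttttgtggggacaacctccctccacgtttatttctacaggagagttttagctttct

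The Svs5 and Svs6 promoters were 96.3% identical over 296 aligned bases, and both held TGTTCT, at -199 and -203 from the start, and TATAAA, at -28 and -32. Svs2 held TATAAA and no TGTTCT, while Wfdc15b held TGTTCT at -133 and no TATAAA. RefSeq gave a promoter for 8 of the 9 members. TATAAA was in 8 of these 8, against 8.32% of 32851 promoters of the same length, and TGTTCT was in 5 of 8, against 19% of all. The TATAAA matches were not all near the start: those of Svs2 were at -236 and -205 and that of Pbsn at -59, while the nearest of the other 6 genes were at -32 to -28. The full palindrome, AGAACA and TGTTCT with 3 bases between them, was in 0 of 8 and in 0.00913% of all. TATAAA and TGTTCT did not overlap in the promoters shown. The matches are descriptions of the letters in these windows, and near-identical promoters are not independent counts.

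Svs5 (ENSMUSG00000017004, chromosome 2, 164332740 to 164334396, plus strand) encodes a secretory protein of the seminal vesicle. Its FPKM was 1.51 in control 1, 1.93 in control 2, 3.26 in hemicastrated 1 and 2.90 in hemicastrated 2. Both hemicastrated values were above both control values, with means of 1.72 ± 0.30 in control testes and 3.08 ± 0.26 after hemicastration (SD, n = 2 each), a ratio of 1.79. The log2 change on the log2(FPKM + 1) scale, which understates changes of low genes, was 0.59 (SE 0.15), with an unadjusted p of 0.00692 and an adjusted p of 0.216 in limma. An unadjusted p under 0.05 was found for 10.5% of the 11343 tested genes, and 0.106% of them were called higher at an adjusted p under 0.05. Its mean level was above that of 58.9% of the genes in the table.

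Svs6 (ENSMUSG00000017000, chromosome 2, 164316751 to 164318453, plus strand), next to Svs5, was at 0.225 FPKM in control 1, listed at 0 in control 2 and at 0.308 and 0.271 in hemicastrated 1 and 2. Both hemicastrated values were above both control values, but by less than 0.1 FPKM over control 1. With depth unknown, levels this low cannot be ranked. Svs5 and Svs6 transcripts share little exact sequence: 1.76% of the 25-base words of the Svs6 transcript occur in that of Svs5. Svs5 and Svs6 were the 2 members whose hemicastrated libraries lay above both controls without overlap, among 7 members above 0 in any library, and 14.8% of all genes above 0 did the same.

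Svs2 (ENSMUSG00000040132, chromosome 2, 164235929 to 164238466, minus strand) is the semenogelin-like major protein of the copulatory plug. Its FPKM was 0.287 and 0.200 in control testes, listed at 0 in hemicastrated 1 and 0.0242 in hemicastrated 2. It was the only member (1 of 7 above 0) with both controls above both hemicastrated libraries, a pattern found in 24.5% of all genes above 0. Svs2 was too low for the main test. With no filter on low values its log2 change was -0.30 (SE 0.05, unadjusted p 0.00370, adjusted p in limma = 0.197). With no filter and a pseudocount of 0.1, a setting chosen after seeing the data, it was -1.61 (SE 0.27, adjusted p in limma = 0.161). Under that setting 0 of 7 members were called, against 0.522% of all genes called lower and 0.0108% called higher.

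The other seminal vesicle members did not separate the groups. Svs4 (chromosome 2, 164275952 to 164278459), a small secreted protein of the seminal vesicle fluid, was at 0.163 and 0.588 FPKM in control testes and 0.323 and 0.190 after hemicastration, so the controls spanned both hemicastrated values. Svs3a (chromosome 2, 164289268 to 164291500) was listed at 0 in control 1 and was at 0.127 in control 2, 0.0487 in hemicastrated 1 and 0.0431 in hemicastrated 2. Svs3b (chromosome 2, 164254363 to 164256640) was above 0 in control 1 alone, at 0.0674 FPKM. Svs3a and Svs3b are near-identical copies: 52.9% of the 25-base words of the Svs3b transcript occur in that of Svs3a, and the aligned transcripts were 94.0% identical, so how their reads were divided between them is uncertain.

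Of the prostate members, Tgm4 alone was above 0. Tgm4 (ENSMUSG00000025787, chromosome 9, 123034726 to 123067561, plus strand), the plug-forming transglutaminase, was at 0.131 and 0.249 FPKM in control testes and 0.140 and 0.124 after hemicastration, and the groups overlapped. Its end overlaps the opposite-strand gene Zdhhc3 by 1402 bases, and Zdhhc3 was at 5.58 and 5.40 FPKM in control testes and 4.31 and 3.86 after hemicastration. Since no strand-marking step is described, reads in the overlap cannot be assigned to either gene. Pbsn (ENSMUSG00000000003, chromosome X, 77837901 to 77853623) and Msmb (ENSMUSG00000021907, chromosome 14, 32142023 to 32158370) were listed at 0 in all 4 libraries, which also held for 15.8% of all genes.

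**Figure D1:**
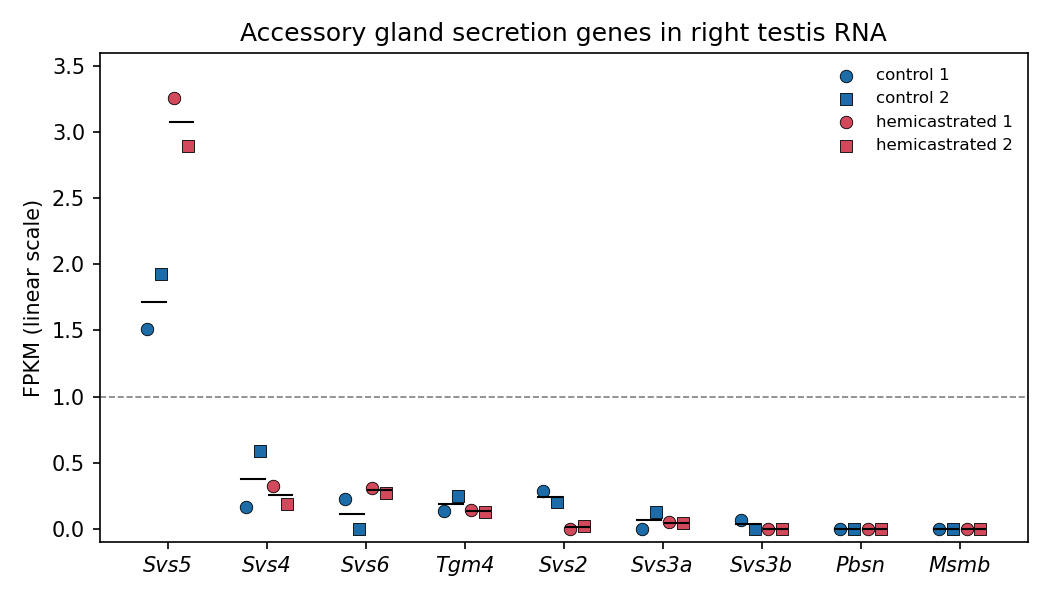
FPKM of the 9 members on a linear axis, ordered by mean, with control libraries in blue, hemicastrated libraries in red, a short black line at each group mean and a dashed line at 1 FPKM. Svs5 lies above the dashed line in each library, at 1.51 to 3.26 FPKM, and the highest value of the other 8 genes is 0.588 FPKM.

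In the order of mean levels (Svs5, Svs4, Svs6, Tgm4, Svs2, Svs3a, Svs3b, then Pbsn and Msmb), Svs5 was separate from the next gene. Its lowest library, 1.51 FPKM, was above the highest library of Svs4, 0.588. Every later pair of neighbours overlapped across the libraries. With no filter on low values, 7 members were above 0 in at least 1 library and were tested, 0 were called in limma over all 18587 genes, and 2 had an unadjusted p under 0.05 (Svs2 and Svs5), as did 10.2% of all genes under that setting. There, 0.629% of all genes were called lower and 0.0161% higher. The adjusted p of the 7 members ranged from 0.197 to 0.943.

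Added together, the 9 genes came to 2.38 and 3.09 FPKM in control testes and 4.08 and 3.55 after hemicastration. These sums are 0.000688% to 0.00119% of the summed FPKM of each library. The hemicastrated mean was higher by 1.08 FPKM, with an exact two-sided permutation p of 0.333, the smallest that 2 libraries against 2 can give. Svs5 made up 62.4% to 63.4% of the sum in control testes and 79.9% to 81.6% in the hemicastrated libraries. Without Svs5 the sums were 0.873 and 1.16 FPKM in control testes against 0.820 and 0.652, and the difference of the means, hemicastrated minus control, was then -0.282 FPKM.

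Among the genes flanking the Svs block, Wfdc15b and Spint3 fell. The block is part of a larger cluster of whey acidic protein domain (Wfdc) and protease inhibitor genes. Within 250 kb on either side lay 21 other protein-coding genes, all in the table, of which 12 reached the filter of 1 FPKM. Of these 12, 2 were called, both lower after hemicastration, against 1.19% of all tested genes. Both reached the filter through their control values. Wfdc15b is also in the distal duct list below, chosen largely from genes known to differ here, so this count is no independent evidence about the locus. Wfdc15b, a whey acidic protein domain gene that begins 111 kb from the Svs5 start, was at 110.5 and 144 FPKM in control testes, while hemicastrated 1 was listed at 0 and hemicastrated 2 was at 0.890 (log2 change -6.53, adjusted p in limma = 0.000170). Spint3, a Kunitz-type protease inhibitor gene on the other side of the block, was at 20.7 and 23.4 FPKM in control testes, while hemicastrated 1 was listed at 0 and hemicastrated 2 was at 0.797 (log2 change -4.10, adjusted p in limma = 0.000943).

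Wfdc15a, next to Wfdc15b and farther from the block, was abundant in both groups, at 108 and 114 FPKM in control testes and 134 and 125 after hemicastration (log2 change 0.22, adjusted p in limma = 0.428). Slpi, the secretory leukocyte peptidase inhibitor and the nearest gene beyond Svs5, was at 0.653 and 2.42 FPKM in control testes and listed at 0 in both hemicastrated libraries. Its mean was under 1 FPKM, so it was not in the main test. The other tested neighbours that were not called were Ywhab, Tomm34, Stk4, Sdc4, Sys1, Trp53tg5, Dbndd2, Pigt and Wfdc6a. Among them, Trp53tg5 was the most abundant, at 64.5 and 70.1 FPKM in control testes against 60.4 and 72.2. The 5 Svs genes other than Svs5 thus stood under 0.6 FPKM in every library. Wfdc15a, at 108 to 134 FPKM, lay on the Svs2 side, and Sdc4, a syndecan gene, at 8.27 to 10.2 FPKM, beyond Svs5. Low values were not confined to the block. Between Svs5 and Sdc4 lay Slpi, Matn4 at 0 to 0.0412 FPKM and Rbpjl, listed at 0 in every library. Between Wfdc15a and Svs2 lay Wfdc15b, at or near 0 after hemicastration.

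**Figure D2:**
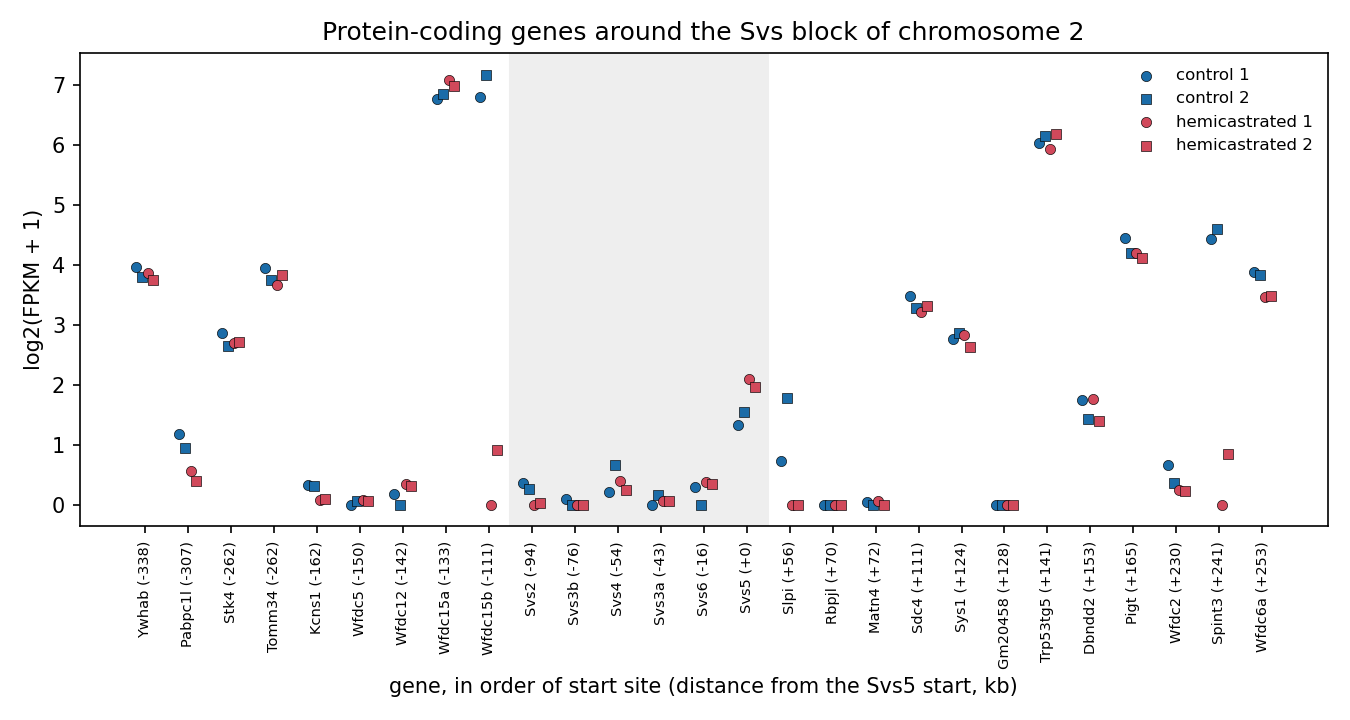
Level, as log2(FPKM + 1), of the protein-coding genes around the Svs block, in order of start site with the distance from the Svs5 start in kb in brackets; control libraries are blue, hemicastrated libraries red, and the grey band holds the 6 Svs genes. Wfdc15b and Spint3 are high in both controls and at or near 0 in both hemicastrated libraries, Wfdc15a is high in all 4, and within the band Svs5 alone exceeds 1 FPKM.

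Other genes of the accessory glands were compared from lists. The labelled tissue was checked first: of 10 genes of germ, Sertoli and Leydig cells, 9 reached the filter of 1 FPKM and 0 were called, with the protamine gene Prm1 at 5802 and 5995 FPKM in control testes and 5732 and 6458 after hemicastration. The Sertoli cell regulator Sox9 was at 0.691 to 1.01 FPKM. In this list 6 of 10 genes had both hemicastrated libraries above both controls, against 14.8% of all genes above 0. Of the 9 tested, 7 had a positive log2 change (median 0.27, against -0.03 over all tested genes). They include the Leydig hormone gene Insl3, at 1272 and 1232 FPKM in control testes and 1609 and 1484 after hemicastration. The testis list was chosen with earlier results of these data known. Of 8 further seminal vesicle genes, 6 were matched in the table, since no entry was found for Aoc1l3 and RefSeq lists Semg1 as a synonym of both Svs2 and Svs5. Pate4, also known as Svs7, was at 0.0926 and 0.168 FPKM in control testes and 0.0600 and 0.104 after hemicastration. The seminal vesicle antigen Sva was listed at 0 in all 4, and the trypsin inhibitor Spink1 was above 0 in hemicastrated 1 alone, at 0.301 FPKM.

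The other 3 genes of this list were tested, and all 3 were called lower, against 1.19% of all tested genes. They reached the filter of 1 FPKM through their control values. The list was chosen with earlier results of these data known, so the shared direction is no independent evidence. Ceacam10, a carcinoembryonic antigen-related adhesion molecule secreted by the seminal vesicle, was at 19.0 and 20.7 FPKM in control testes and 0.253 and 0.822 after hemicastration (log2 change -3.78, SE 0.20, adjusted p in limma = 0.000305). Lactoferrin Ltf, an iron-binding antimicrobial protein that the epididymis also makes, was at 16.4 and 11.7 FPKM in control testes and listed at 0 in both hemicastrated libraries (adjusted p in limma = 0.000171). The protease inhibitor Serpine2, made in many tissues, was at 5.11 and 5.89 FPKM against 1.03 and 0.472 (log2 change -1.91, adjusted p in limma = 0.00590). The list summed to 40.6 and 38.5 FPKM in control testes and 1.64 and 1.40 after hemicastration, and the median log2 change of the 3 tested genes was -3.78, against -0.03 over all tested genes.

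In the prostate list, 2 of 8 genes were tested and 0 were called (median log2 change -0.01). The spermine-binding protein genes Sbp and Sbpl were listed at 0 in every library. Msmp, a relative of Msmb, was at 1.96 and 1.69 FPKM in control testes and 2.08 and 1.74 after hemicastration, and the prostate stem cell antigen Psca was at 0.808 and 1.41 against 0.589 and 1.55. Below the filter of 1 FPKM, the matrix metalloprotease Mmp7 was at 0.930 and 1.21 FPKM in control testes and listed at 0 in both hemicastrated libraries, and the prostatic acid phosphatase Acpp was at 0.253 and 0.387 against 0.0925 and 0.0949. Of the 6 listed genes above 0, 3 had both controls above both hemicastrated libraries (Mmp7, Acpp and Azgp1) and 0 the reverse. These patterns were found in 24.5% and 14.8% of all genes above 0. All 3 averaged under 1 FPKM. The whole list summed to 4.63 and 5.39 FPKM in control testes and 3.49 and 3.88 after hemicastration.

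Of 6 listed regulators of gland epithelium, the androgen-responsive chaperone gene Fkbp5 alone was tested, at 9.02 and 9.04 FPKM in control testes and 6.91 and 10.1 after hemicastration (adjusted p in limma = 0.894). The prostate homeobox gene Hoxb13 was at 0 to 0.0552 FPKM, and the serine protease gene Tmprss2 was at 0.278 and 0.384 FPKM in control testes and 0.201 and 0.230 after hemicastration. Of 8 transglutaminase genes other than Tgm4, 2 were tested and 0 were called (median log2 change -0.01): the widely expressed Tgm2, at 2.32 and 1.92 FPKM against 2.15 and 1.77, and the coagulation factor F13a1, at 3.22 and 1.996 against 3.15 and 2.27. Tgm1 and Tgm3, which crosslink proteins of the skin barrier, were under 0.5 FPKM in all 4 libraries.

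Markers of the sperm duct were lower in the same libraries as Ceacam10, Ltf and Serpine2. Svs2 values were also lower and Svs5 values higher there, but neither gene was called. The list of the distal duct (corpus and cauda epididymis and vas deferens) was chosen largely from genes known to differ in these libraries and is no independent evidence of its direction. Of its 10 genes, 9 were called lower, against 1.19% of all tested genes. All 10 had a negative log2 change, with a median of -5.71. They summed to 1557 and 2173 FPKM in control testes and 6.02 and 10.1 after hemicastration, or 0.449% and 0.631% of the summed FPKM against 0.00176% and 0.00287%. The vas deferens protein gene Akr1b7, an aldo-keto reductase, was at 33.6 and 57.8 FPKM in control testes and 0.399 and 0.236 after hemicastration. The sperm-coating Crisp1 was at 545 and 786 FPKM in control testes and 0.0453 and 0.0391 after hemicastration. The other called genes were Cd52, Ces5a, Spink8, Defb28, Defb2, Pate1 and Wfdc15b. Of these, Defb2 and Pate1 were listed at 0 in both hemicastrated libraries. Crisp1, Akr1b7, Defb28, Defb2, Pate1 and Wfdc15b reached the filter of 1 FPKM through their control values.

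Proximal epididymis genes were mixed. Of 14 listed, 6 were tested and 3 were called lower (Adam7, Lcn12 and Rnase9), against 1.19% of all tested genes. These 3 reached the filter of 1 FPKM through their control values. The lipocalin Lcn12 was at 6.99 and 3.84 FPKM in control testes and listed at 0 in both hemicastrated libraries, and Rnase9 was at 6.59 and 11.5 FPKM against 0 and 0.0490. The lipocalins Lcn5 and Lcn8, which define the proximal segments, were listed at 0 in all 4 libraries. Gpx5 and Crisp4, under the filter of 1 FPKM, were listed at 0 in the hemicastrated libraries only. In control testes Gpx5 was at 0.372 and 0.444 FPKM and Crisp4 at 0.492 and 0.781. Of the 12 listed genes above 0, 5 had both controls above both hemicastrated libraries and 1 the reverse. These patterns were found in 24.5% and 14.8% of all genes above 0. The list summed to 363 and 505 FPKM in control testes and 421 and 487 after hemicastration, most of it from Cst8, a cystatin that the testis also makes (169 and 200 FPKM against 206 and 242), and Lcn2, an acute-phase lipocalin (157 and 266 against 213 and 242). The control libraries, with the distal duct genes at 1557 and 2173 FPKM in sum, thus held 0.742 and 0.915 FPKM of the 5 Svs genes other than Svs5, and the hemicastrated libraries, with those genes at 6.02 and 10.1 FPKM, held 0.680 and 0.528. The part of the duct genes in the differences of Svs2, Ceacam10, Ltf and Serpine2 was not tested.

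Genes from remote organs were also listed, at values from 0 to 42.6 FPKM. Among 14 secretion genes of liver and pancreas, a list added after the data were seen, 7 reached the filter of 1 FPKM, 0 of these were called, and 6 of the 14 were under 1 FPKM in every library. All 7 tested had a positive log2 change, with a median of 0.68 against -0.03 over all tested genes. Serum albumin Alb was at 17.1 and 7.34 FPKM in control testes and 42.6 and 12.4 after hemicastration, and the list summed to 49.3, 26.3, 101.4 and 36.01 FPKM in control 1, control 2, hemicastrated 1 and hemicastrated 2. For Alb and for the sum, hemicastrated 1 was highest and hemicastrated 2 lay between the controls. The apolipoprotein Apoa1 had the same order of libraries, at 2.59, 1.23, 7.56 and 2.15 FPKM. Svs5 had another order, at 1.51, 1.93, 3.26 and 2.90 FPKM. The groups overlapped for Alb and Apoa1 but not for Svs5. All 9 accessory gland members were below Alb in each library. Whether the values of Svs5 and of the liver genes have a shared source was not tested.

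**Figure D3:**
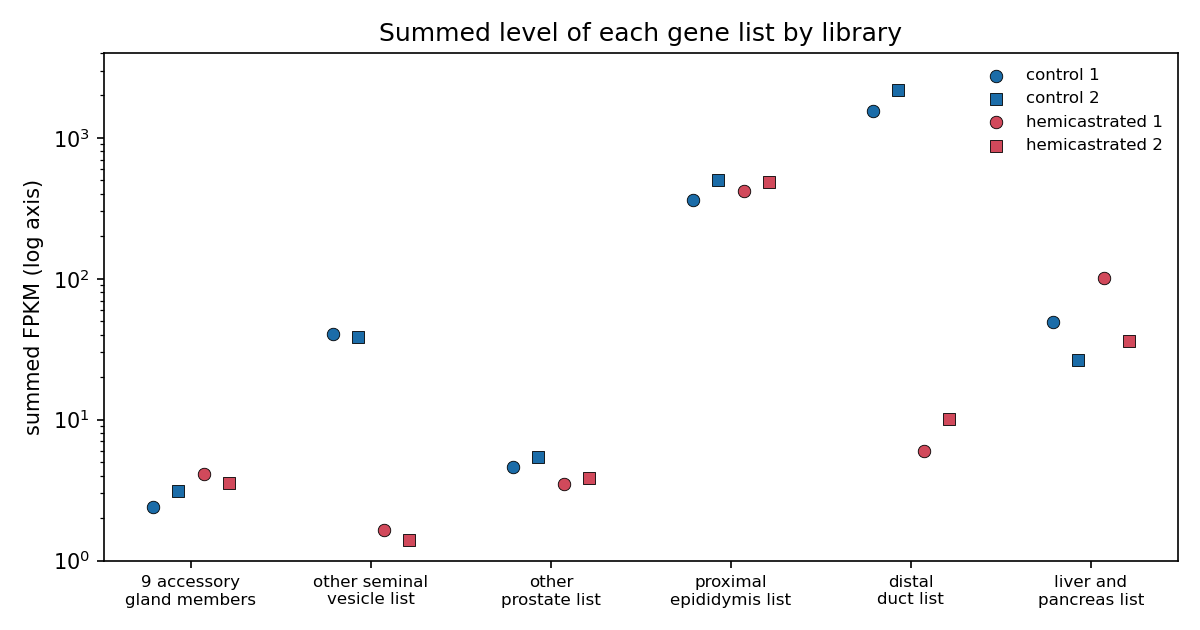
Summed FPKM of each gene list in each library, on a log axis, with control libraries in blue and hemicastrated libraries in red. The distal duct list lies at 1557 and 2173 FPKM in control testes and at 6.02 and 10.1 after hemicastration, the other seminal vesicle list at 40.6 and 38.5 against 1.64 and 1.40, and the 9 accessory gland members stay between 2.38 and 4.08 FPKM.

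The genes whose pattern over the 4 libraries was nearest to that of Svs5, by the distance between centred log2(FPKM + 1) values among 11342 genes, were E030037K01Rik (distance 0.0539), 1700001J03Rik (0.0687) and Napg (0.109). E030037K01Rik was at 0.9003 and 1.14 FPKM in control testes and 2.09 and 1.81 after hemicastration. The RIKEN clone gene 1700001J03Rik was far more abundant, at 86.1 and 94.6 FPKM against 143 and 128 (log2 change 0.58, adjusted p in limma = 0.0615). Napg, which encodes the gamma form of the vesicle fusion adaptor SNAP, was at 3.02 and 3.85 against 6.36 and 5.09. None of these 3 was called, and with 4 libraries many genes can share such a pattern.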

How the data were processed

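Messenger RNA was measured in 4 testis libraries, 2 per group, with groups taken from the sample titles. The molecule is labelled genomic DNA although the protocol is one for RNA. Per the file headers, the authors deposited FPKM values, 1 for each gene in each library. TopHat2 (2.0.11), the genome build GRCm38 and Cufflinks (2.2.1) appear, without roles, in the submitters' processing notes; their annotation is not given in the sources read here. Depth is unknown and no counts could be recovered, so no counting intervals are given. Summed FPKM was 343105 to 353135 per library.

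Symbols and positions came from GENCODE M21 (GRCm38), which named 21806 of 22073 genes. The 11343 genes averaging 1 FPKM or more were tested on log2(FPKM + 1) with limma 3.58.1 (R 4.3.3), trended variance, no covariate, two-sided, Benjamini-Hochberg adjustment over all tested genes, called at an adjusted p under 0.05. Differences are hemicastrated minus control. The fit was tested on simulated data with changes placed only on genes of higher mean level than Svs5. That test therefore cannot tell how often a change in a member would be called. The members, the gene lists (seminal vesicle, prostate, gland regulators, transglutaminases, proximal epididymis, distal duct, testis) and the tests were chosen with earlier results of these data known. A liver and pancreas list was added after seeing the data. Named were all members, neighbours within 250 kb at 1 FPKM or more, called genes of each list or else up to 4 of its most abundant genes, and the 3 genes most like each member that passed the filter. Genes named beyond this were chosen after their values were seen. Among them were Pate4, Sva, Spink1, Acpp, Azgp1, Cst8, Lcn2, Sbp, Sbpl, Hoxb13, Slpi, Matn4, Rbpjl, Lcn5, Lcn8, Gpx5, Crisp4, Tgm1, Tgm3 and Sox9. Some genes of the regulator list are not reported here. Transcripts were aligned with Biopython 1.88. Alternatives were the pseudocount, the filter, quantile normalization, no trend, each library left out and a replicate block.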

Additional observations from a re-analysis of the deposited data

How the results depend on the processing

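Most alternatives tested 1 of the 9 members, Svs5, and those without a filter tested 7; 0 were called in either direction in each. Under a filter of 5 FPKM none was tested, so that setting gives no value for them. The log2 change of Svs5 stayed positive and was not past the threshold in its alternatives, from 0.48 without control 1 to 0.70 without control 2, with limma adjusted p from 0.179 under quantile normalization to 0.707 without control 1, and was 0.81 with a pseudocount of 0.1. The difference in the summed FPKM of the members was 0.725 to 1.43 when a library was left out, 3.05 in TPM (every library scaled to the same total), and changed sign, to -0.282, without Svs5.

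Counts over all genes moved more. Lower genes numbered 135 in the main comparison, 63 with a filter of 5 FPKM, where fewer genes were tested, and 78 to 169 when a library was left out (78 without control 2, 83 without control 1). Higher genes numbered 12 in the main comparison, 3 with no filter, 2 with no filter and a pseudocount of 0.1 (chosen after seeing the data), 7 with a filter of 5 FPKM and 1 to 27 when a library was left out; the cause was not tested. With the replicate number as a block, higher genes numbered 30, lower genes 167, and Svs5 had a log2 change of 0.59 (limma adjusted p = 0.189). Nothing in the labels pairs the mice by number, and the deviations of control 1 and hemicastrated 1 from their group means had a correlation of 0.0137 across genes. With 2 libraries per group and unknown depth, levels under 1 FPKM cannot be ranked.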
